A study of Mus musculus with 30 samples.

Results

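Bone stroma taken from beside tumours of the Brx50 line was compared with bone stroma without such exposure. The group was chosen by its labels, as the bone libraries exposed to Brx50, and holds 4 of the 30 libraries of the series, set against 3 bone control libraries. Brx50 is a line of circulating tumour cells (CTCs), cells shed into the blood by a human breast cancer and grown in suspension culture. Per the labels' protocols, 100000 CTCs marked with GFP and luciferase were injected into the left cardiac ventricle of female NSG mice aged 6 to 8 weeks that carried slow-release estrogen pellets. NSG mice lack mature T, B and natural killer cells. Lesions were dissociated, GFP-negative cells were sorted as stroma, and each library was made from the RNA of 50000 such cells. The control libraries are labelled only as bone without CTC exposure. The sources used here do not say whether control mice had the pellets too, which bone gave the Brx50 and control libraries, or how many mice were used. Bone exposed to the lines Brx07 (2 libraries, whose titles name leg and skull) and Brx68 (7 libraries) served for a second comparison.

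Bone marrow stroma in the wide sense used here is every GFP-negative cell: blood-forming cells, macrophages, osteoclasts that resorb bone, osteoblasts that build it, and the endothelial and mesenchymal cells that hold progenitors in their niche. Breast cancer in bone is known for a cycle in which tumour cells drive osteoclasts through RANK ligand while resorbed matrix releases growth factors, and for displacing the blood-forming marrow. In a bulk library, fewer cells of a type and less RNA per cell cannot be told apart, which holds for every gene group below.

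Total counts ran from 7309251 to 10313036 in the Brx50 libraries and from 10625392 to 12989953 in the controls, with 21778 to 23737 and 22875 to 22917 genes detected. Values are CPM, the count of a gene scaled to the total of its library. Where 4 values are set against 3, they are Brx50 replicates 1 to 4 and control replicates 1 to 3, in that order. The Brx50 libraries differed far more from each other than the controls did: Spearman's rank correlation between pairs of libraries ran from 0.763 to 0.945 in the first and from 0.985 to 0.990 in the second, and the common biological coefficient of variation was 0.628 and 0.143. The titles of Brx50 replicates 1 to 4 end in the codes 7.3, 83.2, 84.2 and 9.3, and the sources used here do not explain them. The code 83.2 also ends titles of Brx50 brain and lung libraries, and 84.2 those of a Brx50 lung and a Brx68 bone library. Replicates 2 and 3, which stood apart from replicates 1 and 4 in many genes below, share the last digit 2 and the others share 3. What the code stands for and this division cannot be told apart here. No label says which libraries came from separate mice. The p-values therefore describe the spread among these 7 libraries, and this spread may be partly technical.

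No gene passed the main test. Of 16729 genes tested with edgeR's quasi-likelihood F-test, 0 (0%) had a Benjamini-Hochberg adjusted p under 0.05, and the smallest adjusted p was 0.197. At an unadjusted p under 0.05 there were 1600 genes (9.56%), 1353 of them higher (8.09%) and 247 lower (1.48%). In 1053 genes (6.29%) every Brx50 library stood above every control, and in 770 (4.60%) every Brx50 library stood below. Other tests made calls on the same counts: limma-voom with sample quality weights called 490 genes higher (2.93%) and 21 lower (0.126%), DESeq2 called 731 higher (4.37%) and 57 lower (0.341%), and 473 genes were called by both. Without Brx50 replicate 1, edgeR called 71 genes, 69 of them higher, and with any other single library left out it called 0. The median log2 fold change of all genes tested was 0.04. Because no gene passed, levels below are called higher or lower from the values themselves, and adjusted p-values are edgeR's unless another tool is named.

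**Figure D1:**
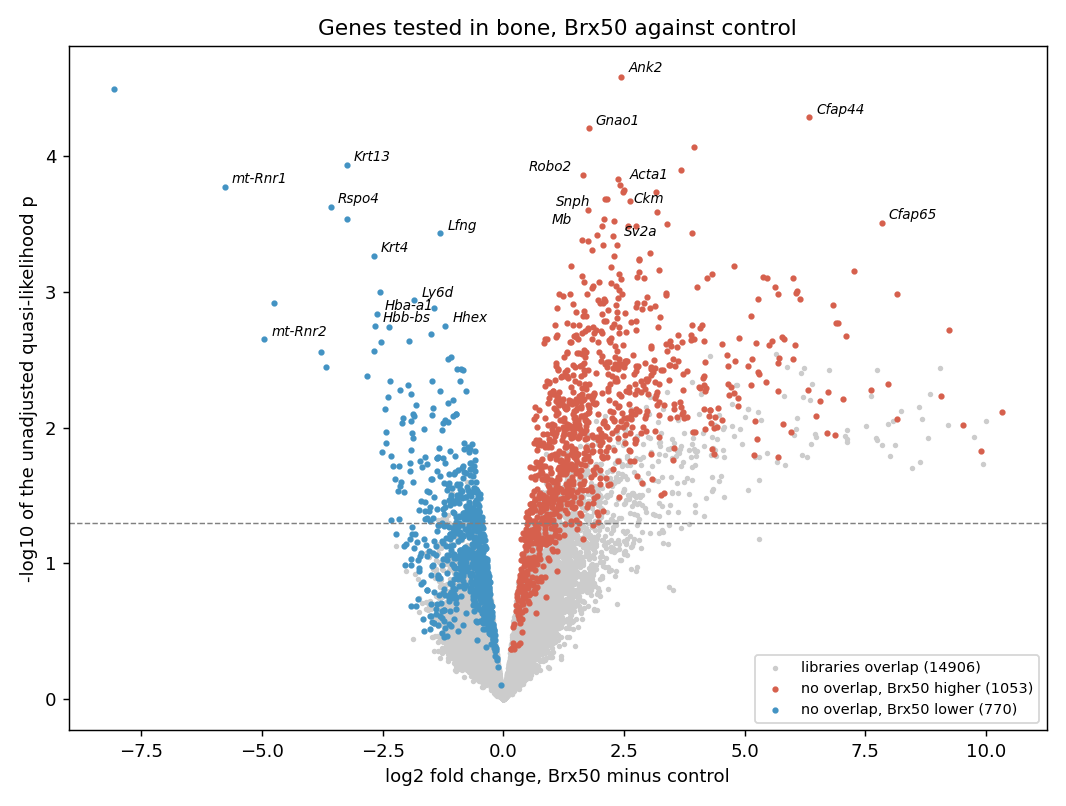
Log2 fold change, Brx50 minus control (x axis), against minus log10 of the unadjusted quasi-likelihood p (y axis) for the 16729 genes tested. Red marks the 1053 genes whose 4 Brx50 libraries all stood above the 3 controls, blue the 770 that stood below, grey the rest, and the dashed line an unadjusted p of 0.05. Named points are the 10 higher and 10 lower genes with the smallest p under the naming rule, among them Ank2, Acta1, Krt13 and mt-Rnr1.

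Of 14 skeletal muscle genes tested, 9 were higher in all 4 Brx50 libraries than in any control. Acta1 (chr8:123891769-123894751), the actin of the muscle thin filament, stood at 213, 224, 118 and 133 CPM against 36.9, 29.1 and 30.7. The lowest Brx50 value was above 3 times the highest control, and the log2 fold change was 2.43 (SE 0.35), with an adjusted p of 0.197. Ckm (chr7:19404776-19422841), the creatine kinase of muscle, stood at 52.9, 60.5, 30.6 and 31.8 CPM against 8.08, 6.96 and 8.79, a log2 fold change of 2.48 (SE 0.37). Mb, the oxygen store myoglobin, stood at 52.7, 47.1, 34.5 and 41.2 CPM against 12.2, 11.4 and 15.7 (log2 fold change 1.75, SE 0.27). These genes shared an order within the exposed group: replicates 1 and 2 were above replicates 3 and 4 for Acta1, Ckm and Mb.

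The sequences upstream of Acta1 and Ckm are shown because these genes were higher together in all 4 libraries. Both are the 250 bases before the RefSeq start (build GRCm38.p6). The gene intervals printed in this report are GENCODE's, which begin further upstream for Ckm, Hba-a1 and Hbb-bs, so those windows lie wholly or partly inside them. Sequences are read 5′ to 3′ on the gene's strand. Capitals mark CANNTG, the E-box bound by myogenic factors, and the CArG box, a site of serum response factor, searched on both strands.
Acta1 promoter, chr8:123894776-123895025, minus strand: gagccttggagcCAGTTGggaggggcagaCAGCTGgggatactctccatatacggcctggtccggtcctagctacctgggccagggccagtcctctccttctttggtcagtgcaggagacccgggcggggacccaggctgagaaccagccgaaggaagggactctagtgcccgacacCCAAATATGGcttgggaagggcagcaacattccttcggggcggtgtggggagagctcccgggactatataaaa
Ckm promoter, chr7:19410844-19411093, plus strand: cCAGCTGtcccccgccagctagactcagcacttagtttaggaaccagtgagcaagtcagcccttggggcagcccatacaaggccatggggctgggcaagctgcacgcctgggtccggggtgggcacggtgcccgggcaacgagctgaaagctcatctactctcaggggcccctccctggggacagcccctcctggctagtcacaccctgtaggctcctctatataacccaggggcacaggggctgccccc
Acta1 holds 2 CANNTG matches and 1 CArG box, and Ckm holds 1 CANNTG match and 0 CArG boxes in this window. Of 32841 promoter windows of this length, 66.2% hold a CANNTG match and 1.47% a CArG box. The motifs do not overlap in these 2 windows, and a match describes letters only.

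Of 16 skeletal muscle genes listed, 14 passed the filter on low counts, while Myh7 and Tnnc2 stayed at or below 3.30 and 0.958 CPM in these libraries. All 14 were fitted higher, and 9 did not overlap the controls (6.29% of all genes tested were higher without overlap). At an unadjusted p under 0.05 there were 9 (8.09% of all genes tested were higher at that p). With quality weights limma-voom called 7 (2.93% of all genes tested were called higher). Their median log2 fold change was 1.81, against 0.04 over all genes, and it ran from 1.65 to 1.97 as each of the 7 libraries was left out. Mylpf, the fast regulatory light chain, stood at 31.3, 47.0, 18.4 and 24.2 CPM against 7.39, 5.27 and 6.85. Tnni2, fast troponin I, stood at 35.2, 40.8, 20.7 and 16.2 CPM against 6.54, 5.74 and 9.63. Actn3, the alpha-actinin of fast fibres, stood at 13.8, 25.7, 11.2 and 15.99 CPM against 4.70, 4.89 and 3.24, and Pvalb, the calcium buffer parvalbumin, at 8.76, 10.02, 7.18 and 7.43 CPM against 2.23, 2.35 and 1.85. Their log2 fold changes were 2.22 (SE 0.40), 1.97 (SE 0.44), 1.95 (SE 0.39) and 1.95 (SE 0.33).

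Some members overlapped the controls. Ttn, the giant spring titin, stood at 722, 317, 182 and 645 CPM against 274, 462 and 346, with replicate 2 inside and replicate 3 below the control range. Myh1, a fast myosin heavy chain, stood at 165, 84.2, 36.6 and 83.7 CPM against 44.6, 61.1 and 60.3, and Des, the intermediate filament desmin that smooth muscle also makes, at 77.0, 40.1, 37.1 and 50.7 CPM against 49.4, 22.7 and 35.3. With limma-voom Ttn and Myh1 were fitted lower and the other 12 members higher. The sum of the list, 1541, 996, 558 and 1159.6 CPM against 491, 662 and 559, overlapped the controls through replicate 3. Muscle is not part of bone stroma, and whether tissue at the edge of the dissected lesions entered the sort was not tested.

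Of 14 erythroid genes tested, 10 were lower in all 4 Brx50 libraries than in any control. Hba-a1 (chr11:32283511-32284465), an alpha-globin gene, stood at 32.3, 22.98, 9.31 and 14.1 CPM against 196, 80.0 and 90.7, a log2 fold change of -2.61 (SE 0.54) and an adjusted p of 0.222. Hbb-bs (chr7:103826534-103828096), a beta-globin gene, stood at 37.3, 47.8, 11.8 and 23.8 CPM against 317, 121 and 138 (log2 fold change -2.65, SE 0.56). Control replicate 1 was the highest library for both, and the 2 remaining controls still stood above every Brx50 library. The globins have near-identical copies, so reads of Hba-a1 and Hba-a2, and of Hbb-bs and Hbb-bt, may be split or lost: Hba-a2 stayed at or below 0.188 CPM in all 7 libraries, and Hbb-bt stood at 7.52, 20.0, 5.43 and 9.60 CPM against 106, 36.5 and 41.5.

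The windows upstream of both globin genes are shown as the matching pair for the lower group, with capitals for GATAA, a core of the GATA factor site, and CACCC, a site of Krüppel-like factors, again on both strands.
Hba-a1 promoter, chr11:32283422-32283671, plus strand: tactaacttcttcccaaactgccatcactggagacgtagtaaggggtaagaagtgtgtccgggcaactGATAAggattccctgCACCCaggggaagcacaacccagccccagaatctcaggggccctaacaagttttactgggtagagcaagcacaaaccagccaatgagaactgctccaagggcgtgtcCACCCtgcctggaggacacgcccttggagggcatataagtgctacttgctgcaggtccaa
Hbb-bs promoter, chr7:103827929-103828178, minus strand: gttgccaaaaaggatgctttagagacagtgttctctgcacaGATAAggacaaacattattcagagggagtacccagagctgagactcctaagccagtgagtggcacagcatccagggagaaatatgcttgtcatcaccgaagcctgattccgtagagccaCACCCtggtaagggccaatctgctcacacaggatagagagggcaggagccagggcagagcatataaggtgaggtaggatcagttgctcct
Hba-a1 holds 1 GATAA and 2 CACCC matches, and Hbb-bs holds 1 of each, with no overlap between them. Of all 32841 windows, 22.6% hold GATAA and 52.0% hold CACCC.

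Of 16 erythroid genes listed, 14 passed the filter, Hba-a2 did not, and Ahsp had no matching ID. All 14 were fitted lower, 10 without overlap (4.60% of all genes tested) and 9 at an unadjusted p under 0.05 (1.48% of all genes tested). Their median log2 fold change was -1.97 and ran from -2.28 to -1.55 as each library was left out. Slc4a1, the anion exchanger band 3 of the red cell membrane, stood at 1.23, 28.3, 29.9 and 26.8 CPM against 450.1, 189 and 217 (log2 fold change -3.77, SE 0.87), the largest fitted difference among the 14 members. It was the 1 member that limma-voom called (0.126% of all genes tested were called lower). Without Brx50 replicate 1, the lowest library for Slc4a1, edgeR gave an adjusted p of 0.0468 at a log2 fold change of -3.34. Alas2, the first enzyme of red cell haem synthesis, stood at 6.57, 6.64, 3.39 and 13.5 CPM against 42.6, 17.0 and 24.0. Epor, the erythropoietin receptor, stood at 1.78, 4.50, 3.98 and 3.54 CPM against 13.6, 6.96 and 7.498. The log2 fold changes of these genes were -1.90 (SE 0.50) and -1.46 (SE 0.40).

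Tfrc, Gata1 and Car1 were less separated. Tfrc, the transferrin receptor that every dividing cell uses, stood at 42.8, 104, 65.6 and 43.8 CPM against 164, 106 and 104 (log2 fold change -0.96, SE 0.37). Gata1, the master factor of the lineage, stood at 0.410, 4.39, 6.01 and 5.48 CPM against 9.31, 6.78 and 5.74, with replicate 3 inside the control range. Car1, a carbonic anhydrase of red cell precursors, stood at 0, 79.4, 34.5 and 10.97 CPM against 41.7, 35.4 and 26.2, from none in replicate 1 to above every control in replicate 2, and it was fitted higher without replicate 1 or without replicate 4. The summed list stood at 142, 407, 227 and 195 CPM against 1564, 712 and 774. Megakaryocyte and platelet genes, the neighbouring lineage, had 9 of 12 members tested and 8 fitted lower, with a median of -0.26 that was -0.03 without replicate 2.

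**Figure D2:**
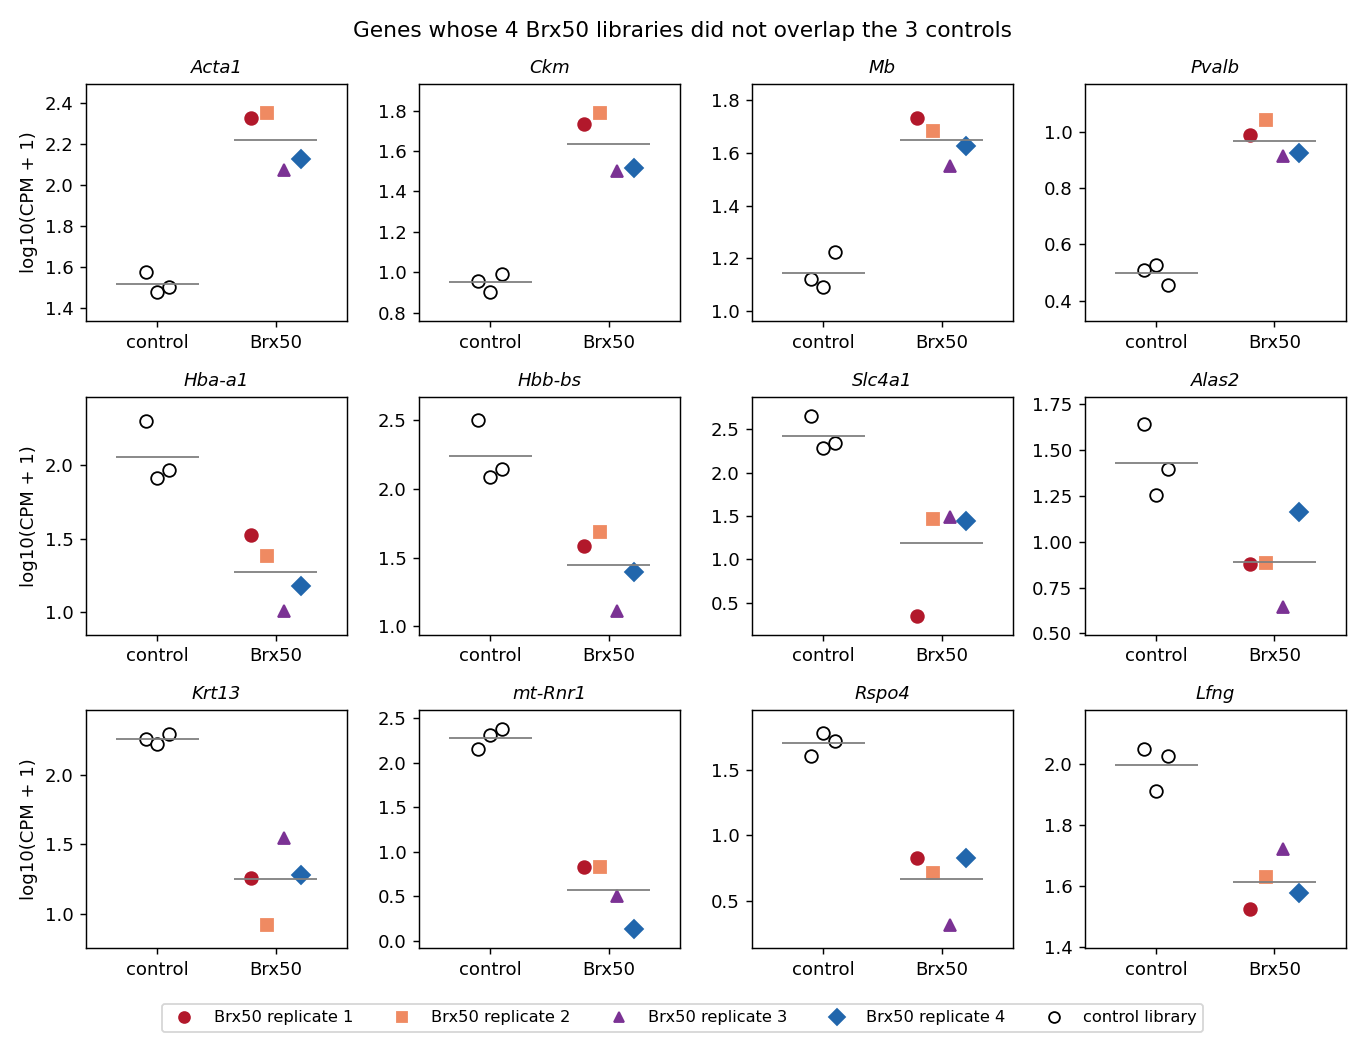
Log10(CPM + 1) of 12 genes in the 3 control libraries (open circles) and the 4 Brx50 libraries (coloured symbols, 1 per replicate), with a grey bar at each group mean. The y axes differ and do not start at 0. In each panel the groups do not overlap: Acta1, Ckm, Mb and Pvalb are higher in Brx50, and Hba-a1, Hbb-bs, Slc4a1, Alas2, Krt13, mt-Rnr1, Rspo4 and Lfng are lower.

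Neutrophil genes, the main product of marrow, divided the Brx50 libraries instead of separating them from the controls. Mpo, the peroxidase of primary granules made by precursors, stood at 0, 599, 469.5 and 2.51 CPM against 745, 545 and 679. Elane, neutrophil elastase, stood at 0.547, 874, 574 and 2.51 CPM against 1174, 784 and 949. Replicate 2 was within the control range and replicate 3 below it for both, while replicates 1 and 4 had next to none. Of 8 primary granule genes, 7 passed the filter and Azu1 had no matching ID. The 7 were fitted lower with a median log2 fold change of -1.32, 0 had an unadjusted p under 0.05, and the median ran from -2.25 to -0.85 as each library was left out.

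Secondary granule and maturation genes had the same division, with higher values in replicate 2. S100a9, the alarmin subunit of mature neutrophils, stood at 32.0, 17889.5, 6728 and 17.7 CPM against 7889, 10708 and 9833, so replicate 2 exceeded every control. Ngp, neutrophilic granule protein, stood at 4.93, 13929, 6958 and 15.4 CPM against 7930.1, 10261 and 9169.5, and Mmp9, the gelatinase that osteoclasts also make, at 105, 810.0, 828 and 16.2 CPM against 818, 1261 and 1107. All 17 listed genes were fitted lower, with a median log2 fold change of -1.15, from -1.98 without Brx50 replicate 2 to -0.68 without replicate 1. Of these 2 did not overlap (4.60% of all genes tested), among them Padi4, which citrullinates histones, at 0, 35.1, 34.5 and 0 CPM against 48.5, 56.1 and 56.2. Summed over the list, the Brx50 libraries held 557, 62830.3, 30884 and 668 CPM and the controls 35542, 48415 and 42764.

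Cell division genes had a similar library pattern. Mki67, the proliferation antigen, stood at 54.9, 1872, 675 and 201 CPM against 1148, 1009 and 1087, and Mcm2, a subunit of the replicative helicase, at 14.8, 119, 92.7 and 19.1 CPM against 131, 123 and 131. All 20 cell cycle genes were fitted lower, with a median of -0.68 (-1.67 without replicate 2 and -0.31 without replicate 1), but their sum was 291, 4098, 1723 and 454 CPM against 2743, 2504 and 2643, so replicate 2 stood above the controls. Among basophil and mast cell genes, Hdc and Prss34 shared the pattern. Hdc, histidine decarboxylase, stood at 68.7, 827, 906 and 56.3 CPM against 654, 912 and 881, and Prss34, a basophil protease, at 0, 58.5, 115 and 0.228 CPM against 89.4, 55.2 and 106. The list as a whole was mixed, with 7 of its 12 members fitted lower and a median of -0.32. The 5 fitted higher were Gata2, Cma1, Tpsab1, Tpsb2 and Mcpt4. Of 18 progenitor genes, 17 passed the filter, 9 fitted higher and 8 lower with a median of 0.02. Spi1, the PU.1 factor of myeloid progenitors, stood at 11.4, 206, 169 and 8.23 CPM against 234, 244 and 246 and Gfi1, a repressor needed in the neutrophil branch, at 0.684, 18.0, 16.7 and 1.26 CPM against 34.4, 24.9 and 31.8, both lower without overlap. Cd34, which endothelial cells also carry, stood at 444, 118, 131 and 228 CPM against 161, 164 and 194.

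**Figure D3:**
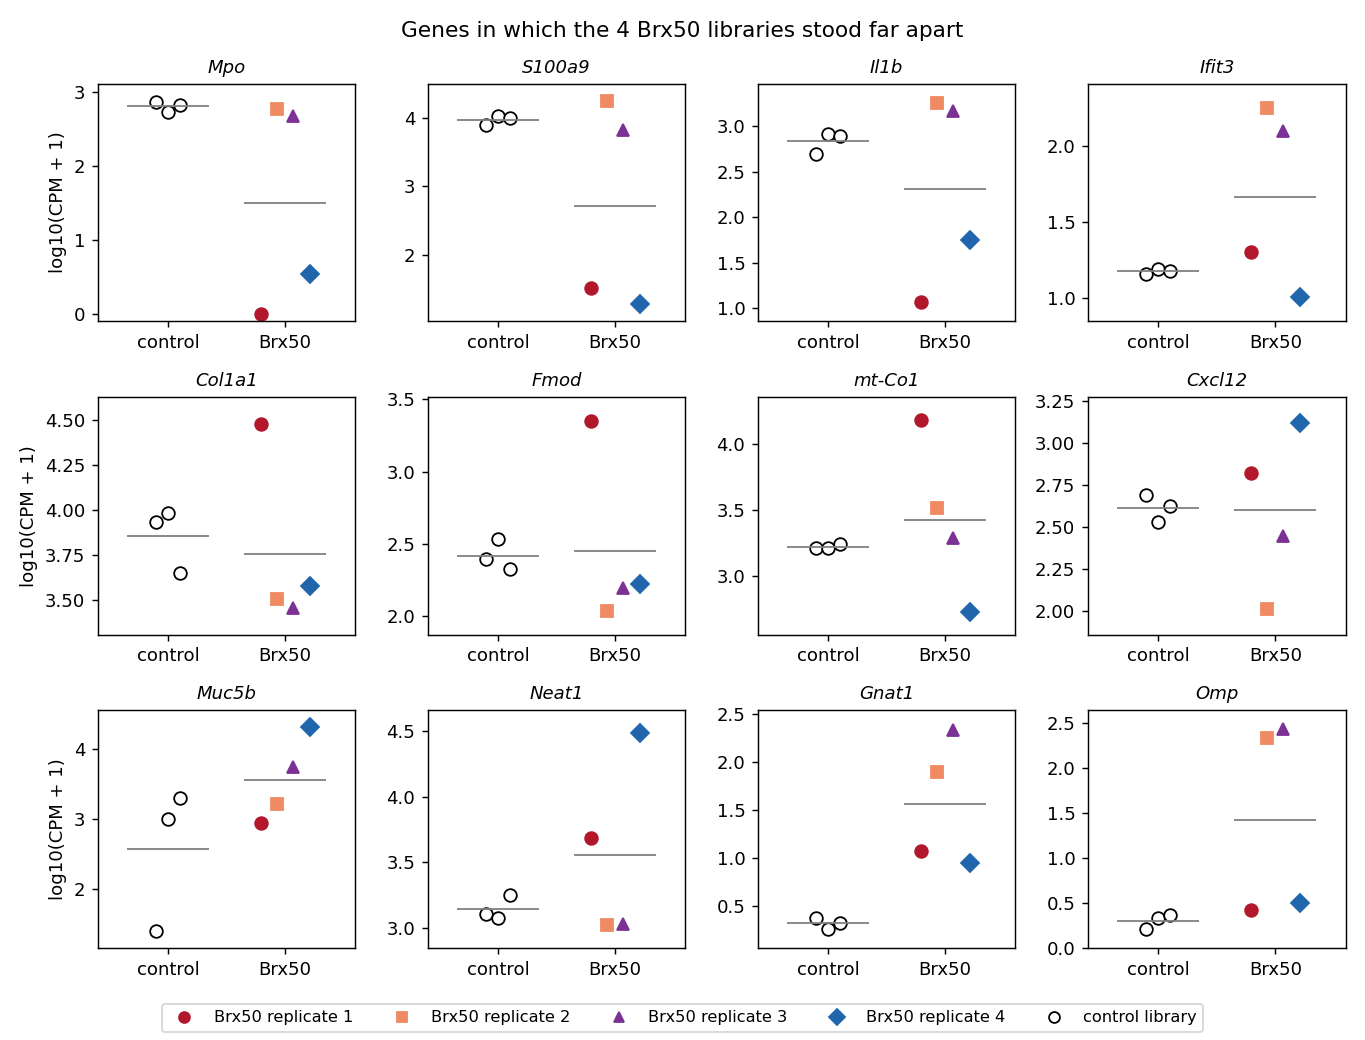
Log10(CPM + 1) of 12 genes in which the Brx50 libraries lay far apart, in the 3 controls (open circles) and the 4 Brx50 libraries (coloured symbols), with a grey bar at each group mean and a different y axis per panel. Mpo, S100a9 and Il1b were near, above or somewhat below the controls in replicates 2 and 3 and low in replicates 1 and 4. Col1a1, Fmod and mt-Co1 were highest in replicate 1, Muc5b and Neat1 in replicate 4, and Gnat1 and Omp in replicate 3.

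Several macrophage genes of the resident kind were higher in most Brx50 libraries, while monocyte genes followed the neutrophils. C1qc, a chain of the complement recognition molecule C1q that tissue macrophages make, stood at 56.5, 28.3, 73.0 and 17.5 CPM against 17.1, 10.1 and 12.6, with no overlap and a log2 fold change of 1.73 (SE 0.53). C1qa stood at 75.1, 38.7, 93.9 and 19.4 CPM against 25.1, 11.1 and 15.1 and C1qb at 53.1, 23.8, 65.9 and 12.1 CPM against 15.6, 9.79 and 11.02, both overlapping the controls only through replicate 4. Ms4a7, a membrane protein of macrophages, stood at 14.8, 7.32, 7.08 and 3.77 CPM against 3.00, 1.6 and 3.05 (log2 fold change 1.71, SE 0.56). Cd163, the scavenger receptor for haemoglobin, stood at 34.6, 13.97, 27.5 and 29.5 CPM against 12.6, 9.13 and 14.9. In contrast Lyz2, myeloid lysozyme, stood at 222, 4020.0, 3044 and 321 CPM against 3157, 3479 and 3331, and Ccr2, the receptor that draws monocytes, at 3.15, 178, 66.5 and 6.74 CPM against 65.8, 47.9 and 54.4. All 20 listed members were tested, and 16 were fitted higher with a median log2 fold change of 0.61. Of these 5 had an unadjusted p under 0.05 (8.09% of all genes tested were higher at that p). Without overlap 2 were higher (6.29% of all genes tested). The summed list stood at 1861, 8344, 7152 and 1204 CPM against 5661, 6040 and 5856. C3ar1, the receptor for the C3a fragment on such cells, stood at 28.5, 15.4, 23.8 and 10.3 CPM against 9.62, 4.89 and 7.87 (log2 fold change 1.40, SE 0.45).

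Osteoclast genes went both ways. Tnfrsf11a, which encodes RANK, the receptor that RANK ligand engages, stood at 33.7, 15.9, 18.3 and 26.3 CPM against 12.1, 6.78 and 10.4, higher in every Brx50 library with a log2 fold change of 1.28 (SE 0.38). Dcstamp, needed for osteoclast precursors to fuse, stood at 5.20, 5.18, 7.08 and 4.91 CPM against 2.69, 2.92 and 2.499 (log2 fold change 1.03, SE 0.31). Itgb3, the integrin subunit of the resorbing osteoclast that platelets also carry, stood at 68.3, 49.3, 58.4 and 71.6 CPM against 77.0, 74.8 and 83.1 and was lower without overlap. Nfatc1, the lineage's master factor, was high in replicates 1 and 4 and low in replicates 2 and 3, at 251, 102, 112 and 295 CPM against 153, 129 and 134. Of 12 members 10 passed the filter, 7 fitted higher and 3 lower with a median of 0.53, which was 0.16 without replicate 1. The resorptive enzymes Acp5 and Ctsk stood at 52.0, 43.5, 28.9 and 13.9 CPM against 33.6, 24.4 and 24.6 and at 98.5, 21.7, 11.1 and 16.3 CPM against 30.9, 26.4 and 18.1, overlapping in both cases. In the list of RANK, Wnt and osteolytic genes, 16 of 18 were tested and 12 fitted higher with a median of 0.68, which became -0.30 without replicate 1, with 11 then fitted lower. Sfrp2, a secreted Wnt antagonist, stood at 217, 37.2, 25.02 and 198 CPM against 308, 777 and 234, lower without overlap.

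Collagen and bone-forming genes depended on replicate 1. Col1a1, the main chain of bone collagen, stood at 29805, 3203, 2884 and 3791 CPM against 8577, 9601 and 4499.7. Replicate 1 was above 3 times the highest control, and the other 3 Brx50 libraries were below the lowest control. Col1a2 stood at 19037, 2033, 1872 and 2665 CPM against 5356, 5632 and 2925 and Col3a1 at 15885, 1512, 1604 and 2559 CPM against 5981, 4839 and 2847, again with replicate 1 above and the other 3 below the controls. All 20 fibroblast and collagen genes were fitted higher with a median log2 fold change of 0.69, which became -0.27 without Brx50 replicate 1, with 16 of the 20 then fitted lower. With limma-voom 9 of the 20, Col1a1, Col1a2 and Col3a1 among them, were fitted lower. Sparc, the collagen-binding osteonectin, stood at 4893, 527, 644 and 654 CPM against 1424, 1458 and 894, and Alpl, the phosphatase of mineralising cells, at 357, 38.1, 68.9 and 88.1 CPM against 240.0, 239 and 195. Of 18 osteoblast and osteocyte genes 16 were tested, with a median of 0.72 that became -0.37 without replicate 1.

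Some other matrix genes were higher in every Brx50 library. Of 18 matrix glycoprotein genes 15 were fitted higher and 3 lower, with 3 higher without overlap (6.29% of all genes tested). Their median of 0.58 became -0.11 without replicate 1, with 10 then fitted lower. Of 20 matrix protease and inhibitor genes 17 were fitted higher and 3 lower, with 2 higher without overlap (6.29% of all genes tested). With limma-voom 8 of these 20 genes were fitted higher and 12 lower. The edgeR median of 0.59 for this list was 0.18 without replicate 1. Spp1, osteopontin, a bone matrix protein that macrophages and osteoclasts also secrete, stood at 251, 179, 162 and 68.9 CPM against 61.4, 68.0 and 57.2, with replicate 4 just above the highest control and a log2 fold change of 1.43 (SE 0.45). Prg4, the joint lubricant lubricin, stood at 365, 78.8, 53.6 and 371 CPM against 27.7, 36.0 and 29.3 (log2 fold change 2.82, SE 0.78), with the highest values in replicates 1 and 4. Timp1, an inhibitor of matrix metalloproteinases, stood at 49.5, 16.8, 10.96 and 52.0 CPM against 10.55, 7.15 and 5.92 (log2 fold change 2.04, SE 0.63). Mfap5, a microfibril protein, stood at 97.5, 29.96, 38.5 and 47.6 CPM against 24.7, 15.0 and 28.4 (log2 fold change 1.26, SE 0.49), and Fn1, fibronectin, at 5698, 1928, 1809.5 and 1880.1 CPM against 1741, 1401 and 1602. Col9a2, a collagen of cartilage, went the other way at 13.8, 13.4, 27.6 and 11.9 CPM against 33.1, 50.4 and 38.5 (log2 fold change -1.31, SE 0.34), while Col2a1, the main collagen of cartilage, stood at 686, 16.2, 59.4 and 13.8 CPM against 17.9, 12.3 and 9.53. The fold change of Prg4 was 1.61 and that of Timp1 1.23 on the log2 scale with limma-voom, and that of Mfap5 was 0.75 without Brx50 replicate 1. Of 20 joint and cartilage genes 17 were tested and 16 fitted higher. Their median of 1.42 dropped to 0.28 without replicate 1.

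Niche and vessel genes were arranged opposite to the neutrophil genes. Cxcl12, the chemokine that retains progenitors in marrow and attracts CXCR4-positive tumour cells, stood at 664, 102, 277 and 1312 CPM against 486, 338 and 419. Flt1, a VEGF receptor of endothelium, stood at 778, 115, 295 and 981 CPM against 412, 459 and 506, and Cdh5, vascular cadherin, at 768, 125, 251 and 585 CPM against 414, 455 and 490.0. Replicates 1 and 4 were above the controls and replicates 2 and 3 below them for each of these 3 genes. Ebf3, a factor of marrow reticular stroma, was higher in every Brx50 library instead, at 51.9, 86.5, 121 and 70.0 CPM against 33.2, 26.6 and 29.6, with a log2 fold change of 1.44 (SE 0.29) and an adjusted p of 0.219. Angpt1, a vessel-stabilising ligand, stood at 14.4, 11.5, 9.60 and 19.0 CPM against 19.3, 28.9 and 19.6 and was lower without overlap, with replicate 4 just under the lowest control. All 15 niche genes were tested, with a median of 0.37, which became -0.06 without replicate 1. Of 16 endothelial genes 15 were tested with a median of 0.04, and Cldn5 was listed at 0 in all 7 libraries. Smooth muscle genes had no member without overlap, and Tagln, a contractile marker, stood at 97.7, 25.8, 58.0 and 50.5 CPM against 150.3, 89.9 and 109.8.

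Inflammatory genes formed sets with different library patterns. Il33, an alarmin of stromal cells, stood at 53.8, 26.9, 27.4 and 49.0 CPM against 16.01, 11.01 and 13.1 (log2 fold change 1.56, SE 0.36). Lif, an interleukin-6 family cytokine, stood at 40.4, 20.5, 21.5 and 38.3 CPM against 9.55, 11.8 and 10.2 (log2 fold change 1.52, SE 0.35), and Csf3, the neutrophil growth factor G-CSF, at 59.0, 13.3, 11.3 and 39.1 CPM against 10.8, 5.74 and 9.997. For these 3 genes all Brx50 libraries were above the controls and replicates 1 and 4 were highest. Il1b, the pyrogen interleukin-1 beta, stood at 10.53, 1814, 1468 and 54.5 CPM against 499, 819 and 787, and Cxcl2, which draws neutrophils, at 97.7, 1002, 589.6 and 58.7 CPM against 155, 339 and 307, high in replicates 2 and 3 and low in replicates 1 and 4. Ccl5, an attractant of lymphocytes, stood at 6.70, 4.96, 3.78 and 1.26 CPM against 0.231, 0.659 and 0.555. Of 20 cytokine genes 18 were tested, 13 fitted higher and 4 of them without overlap (6.29% of all genes tested), with a median of 0.75 that ran from 0.53 to 0.96 as each library was left out.

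Among genes tied to immune suppression, Ptgs2, the inducible cyclooxygenase, stood at 358, 713, 461 and 236 CPM against 86.4, 166 and 138, higher in every Brx50 library (log2 fold change 1.76, SE 0.46). Arg1, arginase 1, stood at 2.05, 2.82, 2.72 and 2.74 CPM against 0.770, 0.659 and 1.02 (log2 fold change 1.64, SE 0.38), a low level in all libraries. Trem1, an amplifier receptor of neutrophils, stood at 7.94, 1219, 968 and 3.66 CPM against 394, 642 and 555, and Slfn4, a myeloid schlafen gene, at 24.4, 1249, 589 and 20.8 CPM against 571, 852 and 912, with the neutrophil pattern. Of 14 listed genes 12 were tested, 8 fitted higher and 4 lower.

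Several interferon-response genes were highest in replicates 2 and 3. Ifit3, an antiviral protein, stood at 19.0, 177, 125 and 9.14 CPM against 13.4, 14.4 and 14.1, with replicate 4 below the controls. Irf7, which drives type I interferon, stood at 59.0, 209, 232 and 56.6 CPM against 78.1, 77.6 and 90.6. Stat2, part of the interferon signal complex, was higher in all 4 libraries, at 145, 111, 143 and 222 CPM against 73.0, 69.8 and 85.1 (log2 fold change 1.01, SE 0.27), as was Ifi44, at 16.6, 40.3, 37.9 and 14.5 CPM against 6.54, 10.4 and 10.6 (log2 fold change 1.56, SE 0.45). All 20 members were tested and 16 were fitted higher, with a median of 0.68. Of these 5 had an unadjusted p under 0.05 (8.09% of all genes tested were higher at that p). Without overlap 2 were higher (6.29% of all genes tested). Nlrc5, the activator of class I genes, stood at 58.7, 60.7, 74.5 and 72.1 CPM against 42.6, 37.5 and 45.3 (log2 fold change 0.66, SE 0.18), but B2m, the class I light chain, at 354, 710.4, 440.0 and 141 CPM against 429.6, 414 and 452, overlapped. Cd74, the class II chaperone, stood at 174, 335, 689 and 70.7 CPM against 334, 184 and 189, with replicate 3 well above and replicate 4 well below the controls.

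Growth factor genes included ligands of the epidermal growth factor receptor family, which did not share a direction. Egf and Ereg were fitted higher and Nrg1 was fitted lower. Egf stood at 2.05, 3.94, 29.9 and 6.28 CPM against 0.462, 0.753 and 1.30 (log2 fold change 3.59, SE 1.02), highest in replicate 3, and at a log2 fold change of 2.29 without that library. Ereg, epiregulin, stood at 3.83, 0.563, 1.65 and 4.23 CPM against 0, 0.188 and 0.370, a low level with replicate 2 just above the controls. Tgfbr1, the type I receptor of TGF-beta, stood at 102, 94.5, 87.8 and 104 CPM against 64.7, 70.3 and 75.0 (log2 fold change 0.47, SE 0.20), and all 4 Brx50 libraries stood above the controls. Igf2, the insulin-like growth factor, stood at 179, 52.9, 75.2 and 51.6 CPM against 194, 203 and 191, lower without overlap. Of 23 growth factor genes 22 were tested, 13 fitted higher and 9 lower. Of 22 TGF-beta and BMP genes 21 were tested, 14 fitted higher and 7 lower.

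Other genes lower in every Brx50 library included Rspo4, Lfng, Ly6d and Hhex. Rspo4, an R-spondin that strengthens Wnt signals, stood at 5.75, 4.17, 1.07 and 5.71 CPM against 39.4, 59.0 and 51.1 (log2 fold change -3.58, SE 0.55). Lfng, the fringe enzyme that modifies Notch receptors, stood at 32.3, 41.4, 51.4 and 36.7 CPM against 111, 80.5 and 105 (log2 fold change -1.30, SE 0.22). In the 9 libraries exposed to the other lines Lfng stood at 22.3 to 75.6 CPM, so every exposed bone library was below every control. Ly6d, a surface protein of lymphoid progenitors and keratinocytes, stood at 4.10, 2.59, 6.40 and 4.57 CPM against 21.8, 12.0 and 13.4 (log2 fold change -1.85, SE 0.37), and Hhex, a homeobox factor of blood and endothelium, at 11.9, 15.0, 11.5 and 9.37 CPM against 24.9, 26.1 and 31.6 (log2 fold change -1.20, SE 0.26).

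The mitochondrial ribosomal RNA genes were lower by a wide margin. The small subunit gene mt-Rnr1 (chrM:70-1024) stood at 5.75, 5.74, 2.13 and 0.343 CPM against 141, 205 and 237, a log2 fold change of -5.77 (SE 0.84), and the large subunit gene mt-Rnr2 at 5.88, 8.90, 1.94 and 0 CPM against 97.7, 143 and 155 (log2 fold change -4.95, SE 1.10). Both were also below every control in the other exposed bone libraries, at 0 to 18.8 CPM for mt-Rnr1 and 0 to 33.7 CPM for mt-Rnr2. The messenger RNAs of the same genome did not follow: mt-Co1, a subunit of cytochrome c oxidase, stood at 15176, 3239, 1915 and 531 CPM against 1619.9, 1620.1 and 1727, and mt-Cytb, cytochrome b, at 7475, 1881, 964 and 365 CPM against 957, 1085 and 1081, both highest in replicate 1 and lowest in replicate 4. Of 15 mitochondrially encoded genes listed 9 were tested. The remaining 6, among them mt-Co2 and mt-Atp6, were listed at 0 in all 7 libraries. Whether removal of ribosomal RNA differed between the library sets was not tested.

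Epithelial genes differed by type. Keratins of stratified lining were lower in all 4 Brx50 libraries: Krt13 stood at 17.2, 7.43, 34.2 and 18.1 CPM against 178, 164 and 195 (log2 fold change -3.24, SE 0.45) and its partner Krt4 at 18.1, 9.91, 44.7 and 15.9 CPM against 128, 142 and 149 (log2 fold change -2.68, SE 0.47). The basal keratins Krt5 and Krt14 stood at 56.6, 26.8, 213 and 69.7 CPM against 485, 233 and 296 and at 45.6, 24.8, 139.6 and 112 CPM against 494, 211 and 276 (log2 fold changes -1.93, SE 0.64, and -2.07, SE 0.59). Of 14 squamous genes 13 were tested, 9 fitted lower and 6 of them without overlap (4.60% of all genes tested), with a median from -1.15 without replicate 3 to -0.10 without replicate 2. The exceptions included Krt10, a keratin of cornified skin, at 7.94, 8.33, 18.4 and 23.9 CPM against 12.5, 3.95 and 2.41. Keratins of simple epithelium were above the controls in replicates 2 to 4: Krt18 stood at 4.65, 34.9, 203 and 75.5 CPM against 9.08, 7.25 and 11.9 and Krt8 at 2.87, 19.1, 155 and 81.0 CPM against 6.70, 4.42 and 3.61. Muc1, a membrane mucin, was higher in all 4 libraries at 11.8, 10.7, 60.5 and 21.2 CPM against 5.47, 1.79 and 2.22 (log2 fold change 2.99, SE 0.75), and Muc2, a secreted mucin, at 10.9, 2.70, 27.4 and 5.48 CPM against 0.924, 1.04 and 1.02 (log2 fold change 3.51, SE 0.83). Muc5b, a gel-forming mucin of airway and glands, stood at 897, 1667, 5630.2 and 20506 CPM against 24.6, 994 and 2028. Of 14 mucous and salivary gland genes 10 were tested and 9 fitted higher, with a median of 4.58. Of these 1 did not overlap (6.29% of all genes tested were higher without overlap). The sum in replicate 1, 949 CPM, was below every control (5584 to 9050.3). Without replicate 4 the median was 2.82, with 7 of the 10 fitted higher, 1 lower and the rest missing the filter. Of 19 epithelial and breast tumour genes 16 were tested and 15 fitted higher, with a median of 2.04, which was 1.12 without replicate 3. Of these 1 did not overlap (6.29% of all genes tested), and the sum in replicate 1, 174 CPM, lay within the controls (161 to 222). In the gland list and the epithelial and breast tumour list, members near 0 in every control could pass the filter only through the Brx50 libraries. The direction of such members was close to fixed, and the counts fitted higher and the medians rest partly on them. These are mouse gene counts. The sources used here do not say how human reads were set apart, and their part in these values was not tested.

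Several sensory genes were higher in the Brx50 libraries, while the sum of the neuron and glia genes overlapped the controls. Gnat1, rod transducin, stood at 10.8, 77.8, 213 and 7.88 CPM against 1.39, 0.847 and 1.11 (log2 fold change 6.05, SE 1.36). Omp, the olfactory marker protein, stood at 1.64, 216, 271 and 2.17 CPM against 0.616, 1.13 and 1.30, with replicates 2 and 3 far above the others. Obp1a, an odorant-binding protein of the nose, was listed at 0, 75.8, 803 and 0 CPM against 0, 0 and 0. All 9 tested members of 15 were fitted higher, 6 without overlap (6.29% of all genes tested), with a median of 4.45. It ran from 3.94 to 5.70 as each library was left out. The filter was run again each time, and without Brx50 replicate 3 only 7 of the 9 were tested. Members with almost no counts in the controls could pass the filter only through the Brx50 libraries, so their direction was close to fixed. Beside Brx07 tumours, the summed list stood at 29.0 CPM in the leg library and 6993 CPM in the skull library, and the part of the bone site in the Brx50 values was not tested. Gnat1 in replicates 1 and 4 was above the controls but far below replicates 2 and 3. Of 16 neuron and glia genes 15 were tested and 14 fitted higher. The median of 2.19 ran from 0.60 to 2.55 as each library was left out, with the lowest value without Brx50 replicate 3. Of the 15, 8 were then fitted higher and 1 lower, and the rest missed the filter. Syt1, a synaptic vesicle calcium sensor, stood at 0.274, 33.1, 40.1 and 8.57 CPM against 0.154, 0.282 and 0.370. The sum of the neuron and glia list stood at 679, 524, 824 and 456 CPM against 378, 517 and 534, with replicates 2 and 4 inside the control range.

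Genes of membranes, synapses and motile cilia were among the 10 higher genes with the smallest p under the naming rule, which required no overlap. Ank2 (chr3:126921612-127499350), an ankyrin that anchors channels in the membranes of nerve and muscle, stood at 108, 159.7, 229 and 203 CPM against 29.7, 31.2 and 33.6, a log2 fold change of 2.44 (SE 0.28) and an adjusted p of 0.197. Gnao1, a G protein subunit abundant in nerve cells, stood at 43.4, 43.4, 65.1 and 60.3 CPM against 16.9, 13.0 and 16.2 (log2 fold change 1.77, SE 0.23). Robo2, a receptor for Slit guidance cues, stood at 21.3, 24.0, 27.8 and 24.6 CPM against 9.16, 7.34 and 6.48 (log2 fold change 1.66, SE 0.24). Snph, which docks mitochondria in axons, stood at 12.9, 10.6, 20.8 and 12.0 CPM against 3.46, 2.92 and 3.05, and Sv2a, a synaptic vesicle glycoprotein, at 9.30, 10.02, 13.96 and 10.1 CPM against 3.08, 2.07 and 1.39 (log2 fold changes 2.14, SE 0.33, and 2.29, SE 0.37). Cfap44 and Cfap65, proteins of motile cilia, stood at 3.97, 16.8, 21.3 and 29.6 CPM against 0.231, 0.188 and 0.185 and at 2.05, 10.47, 17.2 and 37.2 CPM against 0.0770, 0 and 0.0926. No fold is given for these, since no control library held over 3 counts of either. By that rule the lowest Brx50 library was above the highest control in each of the 7 genes. Without Brx50 replicate 1, edgeR's adjusted p was 0.0248 for Ank2, 0.0488 for Gnao1, 0.00728 for Cfap44 and 0.0313 for Cfap65. No gene passed when any other single library was left out. Cfap44 and Cfap65 could pass the filter only through the Brx50 libraries, so their direction was close to fixed and no conclusion is drawn from their p-values.

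Lists of general cell functions overlapped the controls. All 20 cytosolic ribosomal protein genes were fitted lower with a median of -0.40, but their sum, 3279, 6436, 4195 and 1221 CPM against 5274, 4868 and 4913, was below the controls in replicates 1, 3 and 4 and above them in replicate 2, and 6 of the 20 were fitted higher without replicate 4. Rplp0, a stalk protein of the large subunit, stood at 338, 646, 430.0 and 88.2 CPM against 576, 509 and 493. The nuclear oxidative phosphorylation genes were all 20 fitted lower with a median of -0.30, but 10 of them were fitted higher without replicate 4. Malat1 and Neat1, RNAs kept in the nucleus, stood at 16521, 6889, 6974 and 40433 CPM against 7543, 7823 and 9307 and at 4852, 1048, 1075 and 30749.9 CPM against 1289, 1195 and 1794, both highest in replicate 4. Hypoxia and glycolysis genes had a median of -0.08, with Pkm, pyruvate kinase, at 323, 845, 790.4 and 196 CPM against 789.5, 774 and 784. The medians were 0.12 for the unfolded protein response, 0.00 for cholesterol synthesis, 0.29 for immediate early genes, 0.22 for adipocyte genes, 0.09 for dendritic cell genes, 0.36 for complement and -0.04 for class I. Fos, an immediate early gene also induced by dissociation, stood at 1404, 2315, 3539.6 and 2899 CPM against 2361, 2385 and 2268, and Fabp4, a fat cell and endothelial gene, at 447, 144, 133 and 482 CPM against 219, 262 and 295. Lymphocyte genes were sparse in this NSG host: 7 of 18 passed the filter, Ms4a1 was listed at 0 in all 7 libraries, and Ebf1, which stromal cells also express, stood at 154, 79.4, 109 and 255 CPM against 69.0, 58.2 and 79.0.

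**Figure D4:**
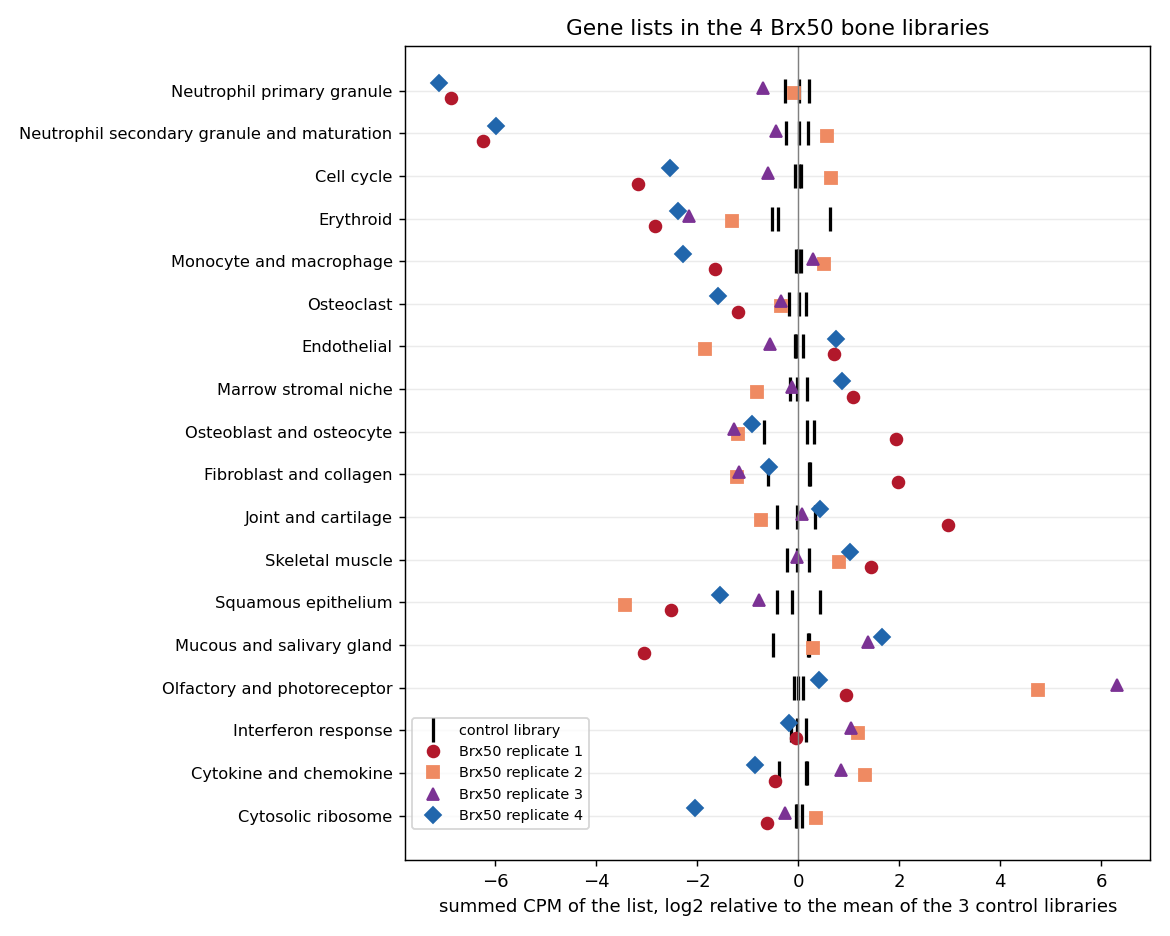
Summed CPM of 18 gene lists in each Brx50 library (coloured symbols) and each control (black bars), as log2 relative to the mean of the 3 controls. The neutrophil, cell cycle, and monocyte and macrophage sums are near or above 0 in replicate 2, and far below 0 in replicates 1 and 4. In replicate 3 the neutrophil and cell cycle sums are below every control, and the monocyte and macrophage sum is above every control. The erythroid sum is below every control in all 4 libraries, and the collagen, bone and joint sums stand out in replicate 1.

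The second comparison asked whether bone beside Brx50 tumours differed from bone beside the other lines, as the difference from the mean of Brx07 and Brx68. Of 19211 genes tested in a fit of all 16 bone libraries, 0 (0%) passed, the smallest adjusted p was close to 1 (0.999996), and 262 (1.36%) had an unadjusted p under 0.05. DESeq2 called 2 genes, both pituitary hormones. Gh, growth hormone, stood at 0, 80.6, 39.9 and 159 CPM in the Brx50 libraries, and Prl, prolactin, at 0, 54.6, 3.78 and 513, with replicate 1 at 0 for both. Among the 9 libraries of the other lines Gh reached 31.6 CPM and Prl 35.7 in Brx68 replicate 3 and at most 0.616 elsewhere, and the controls stayed at or below 0.231. Both genes were named because DESeq2 called them, after their values were seen.

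Genes that separated Brx50 from control had wide ranges beside the other lines. Acta1 stood at 30.2 to 1129.8 CPM across the 9 other exposed libraries and Krt13 at 0 to 1994, ranges that enclose all Brx50 values. The erythroid sum ran from 74.5 to 15145 CPM and the secondary granule sum from 727 to 53419.9 CPM, so the other lines also held libraries with and without abundant marrow transcripts. Col1a1 stood at 2198 to 18831 CPM there, below Brx50 replicate 1. A p that misses the threshold does not show that the lines act alike.

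**Figure D5:**
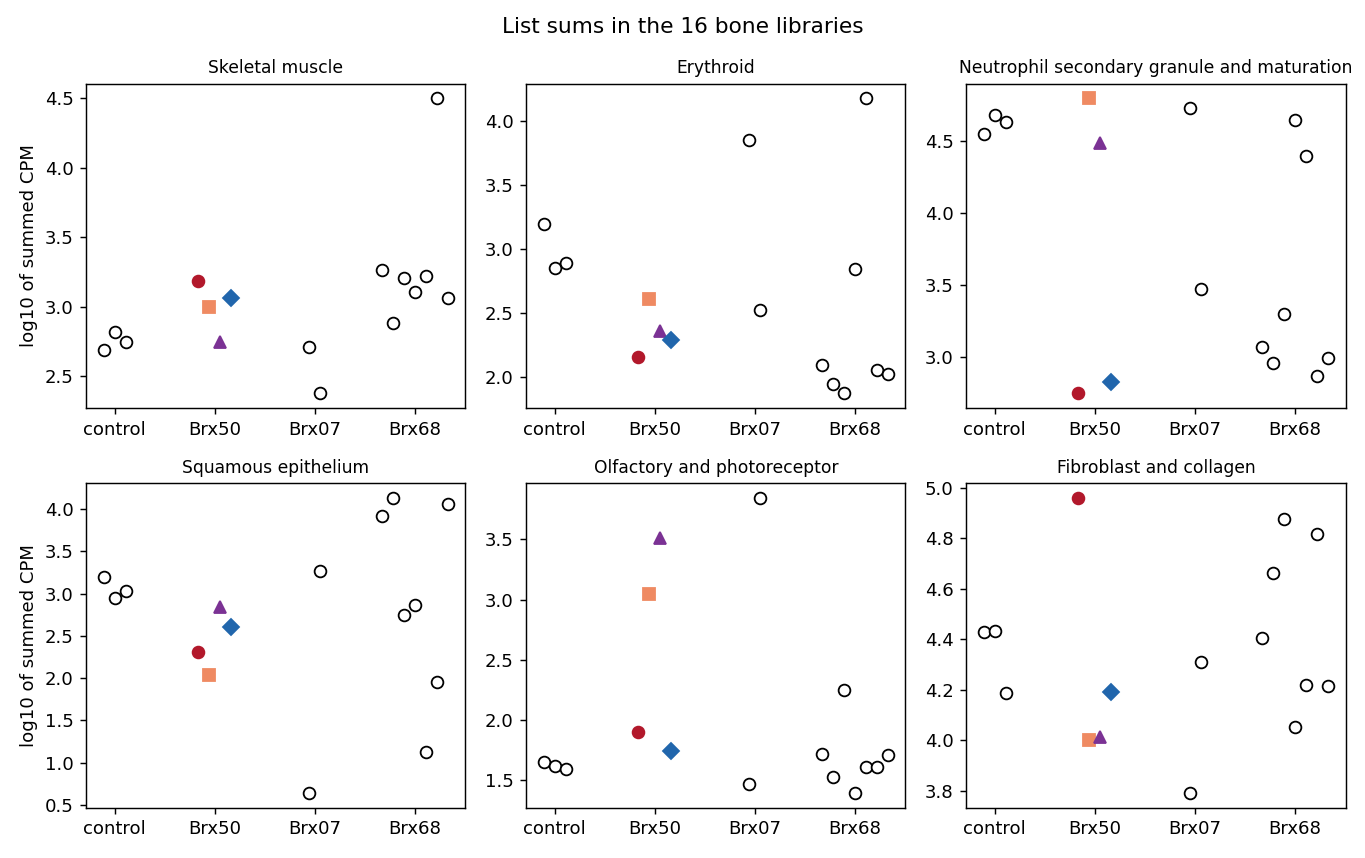
Log10 of the summed CPM of 6 gene lists in the 16 bone libraries, by group (3 control, 4 Brx50, 2 Brx07 and 7 Brx68). Coloured symbols are Brx50 replicates 1 (circle), 2 (square), 3 (triangle) and 4 (diamond), open circles are the other libraries, and the y axes do not start at 0. The muscle, erythroid and olfactory sums of all 4 Brx50 libraries lie within the range of the other exposed libraries (74.5 to 15145 CPM for the erythroid sum), and the collagen sum of replicate 1 lies above it.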

How the data were processed

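The authors deposited 1 table of raw counts, whole reads per Ensembl mouse gene, with 43346 genes and 30 libraries. The submitters' processing notes name HTSeq, STAR (2.5.2b) and, with no role for each, the builds GRCm38.p5, mm10, hg19 and GRCh37. The strand setting, the annotation and how human reads were set apart are not given, so overlapping and antisense genes cannot be told apart. Symbols and coordinates came from GENCODE M21 (GRCm38), which matched 42462 IDs. The 884 without a symbol held 0.132% of counts.

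The 7 libraries were fitted alone with edgeR 4.0.16 in R 4.3.3 (TMM scaling, filterByExpr, robust quasi-likelihood F-test, two-sided, Benjamini-Hochberg over all genes tested, threshold 0.05). The second comparison was a contrast in the 16 bone libraries. Standard errors are the fold change divided by the root of F. Alternatives were DESeq2 1.42.0, limma 3.58.1 voom with quality weights, RLE and upper quartile scaling, no filter, a fit of all bone libraries, and leaving out each library. The filter was run again each time a library was left out, so the members of a list that were tested could change. The test was tried on simulated data first. At the library totals given, 3 counts equal 0.231 to 0.410 CPM, which is the counting floor of a value of 0. Replicates of a group never agreed within sampling noise (chi-square per degree of freedom at least 10.7).

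Genes named are the 10 higher and 10 lower with the smallest p, a mean of at least 10 CPM and no overlap, without Gm, Rik, pseudogene and receptor segment symbols. To these come leading members of the 43 lists by level and by p, and further members to account for a list. Members and lists were chosen with earlier results of these data known. The values of some list members are not reported here.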

Additional observations from a re-analysis of the deposited data

Results flagged for a closer look

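Among the 4 Brx50 libraries, 1 library stood apart from the other 3 in 5 of 100 genes and list sums examined on the log2(CPM + 1) scale, by the gap to its nearest neighbour as a share of the range. Chance flags about 1 in 20 such groups of 4. Slc4a1 was low in replicate 1 (1.23 CPM, a gap of 0.961 of the range). Arg1 was low in replicate 1 (2.05 CPM, 0.880). Dcstamp was high in replicate 3 (7.08 CPM, 0.848). The summed osteoblast and osteocyte list was high in replicate 1 (36023 CPM, 0.890). The summed complement list was low in replicate 4 (1262 CPM, 0.942).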

How the results depend on the processing

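The count of genes past the threshold against control was 0 and stayed 0 under RLE and upper quartile scaling, without the filter, and in the fit of all 16 bone libraries. It was 788 with DESeq2 and 511 with limma-voom quality weights, and from 0 to 71 as each library was left out, with 71 without Brx50 replicate 1. Against the other lines DESeq2 called 2 genes and all alternatives run with edgeR or limma-voom called 0. Of 43 list medians, 29 were above the median of all genes, and 21 to 31 as each library was left out. The sign of the median changed in 18 of 43 lists when 1 library was left out, for example without Brx50 replicate 1 to -0.27 for collagen, -0.37 for osteoblast, -0.30 for RANK, Wnt and osteolytic, and -0.72 for pericyte and smooth muscle genes. Upper quartile scaling raised the median of all genes from 0.04 to 0.17. No paired analysis was possible because the labels of the Brx50 libraries give no replicate number that the controls share. Of 559 list medians under these alternatives 10 moved by more than the spread between the Brx50 libraries. The cause was not tested. Depth limits genes near 3 counts, such as Ereg and Ccl5 in the controls.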

Other observations

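Further gene groups, chosen after their values were seen and so described without a test, had many members that were higher in the Brx50 libraries. Members near 0 in every control could pass the filter only through the Brx50 libraries. Of 23 genes of motile cilia, 22 had an ID, 19 passed the filter, 18 were fitted higher and 10 did not overlap the controls (6.29% of all genes tested were higher without overlap). The sum of the list was 90.6 CPM in replicate 1, below every control (183 to 214), and above them in the other 3. Cfap43 stood at 41.0, 178, 174 and 62.9 CPM against 154, 179 and 187. Foxj1, the master factor of motile ciliated cells, stood at 7.11, 8.56, 17.8 and 7.65 CPM against 2.69, 3.20 and 2.31, and Vwa3a at 14.9, 20.6, 19.9 and 44.1 CPM against 3.16, 4.42 and 4.54. Dnah5, a dynein arm heavy chain, stood at 0.684, 4.96, 17.5 and 27.6 CPM against 0.154, 0.0941 and 0, lowest in replicate 1. Of 12 genes of secretory granules and neuroendocrine cells, 11 were tested, 10 fitted higher and 7 of them without overlap (6.29% of all genes). Chga, chromogranin A of hormone granules, stood at 2.33, 88.7, 134 and 78.3 CPM against 0.539, 0.376 and 0.463, and Scg2, secretogranin II, at 1.09, 8.67, 12.5 and 15.3 CPM against 0.0770, 0.188 and 0.370. Of 13 inner ear genes 8 were tested and 7 fitted higher, 4 of them without overlap (6.29% of all genes tested). Otoa, Otof and Otog overlapped the controls. Myo7a was fitted lower, at 47.6, 43.8, 45.0 and 58.0 CPM against 51.8, 51.5 and 60.3. Pou4f3, Slc26a5 and Tectb were among the members that missed the filter. Coch, a matrix protein of the cochlea, stood at 20.5, 75.3, 70.9 and 11.3 CPM against 6.70, 6.31 and 6.76, and Cldn9, a tight junction gene, at 1.23, 9.91, 19.1 and 4.00 CPM against 0.0770, 0.188 and 0.0926.

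Of 8 pituitary genes 3 passed the filter, all 3 were fitted higher and 1 did not overlap (6.29% of all genes tested). The pituitary transcripts did not share 1 library pattern. Pomc, the precursor of corticotropin, stood at 1.23, 29.2, 36.3 and 23.8 CPM against 0.385, 0.0941 and 0.463, higher in all 4 Brx50 libraries, while Lhb was listed at 0 in all 7. Pou1f1, the factor of growth hormone and prolactin cells, stood at 0.137, 0.450, 0.0970 and 8.57 CPM against 0, 0 and 0.0926, and did not pass the filter. Replicate 4 held the highest Gh, Prl and Pou1f1 and replicate 3 the highest Pomc and Chga.

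Transcripts related to ribosomal RNA were a separate case. Gm42418, an RNA annotated next to Gm26917 on chromosome 17, stood at 0, 0.450, 0 and 0 CPM against 35.1, 42.5 and 22.96, while Gm26917 itself stood at 41757, 43724, 57658 and 76757 CPM against 70856, 60339.8 and 62139 and held the largest share of counts in each of these libraries, from 4.18% to 7.68%. Rn7sk, a small nuclear RNA, stood at 9854, 20556, 12662 and 3196 CPM against 10766, 14046 and 11117.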
